A study of Fragaria x ananassa with 28 samples.

Results

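MYB113, the assembled transcript comp93382_c0_seq1, was followed through the ripening of strawberry fruit. It was taken from the expression table by its identifier and its Swiss-Prot description, the Arabidopsis transcription factor MYB113, and it is 1 of 301219 transcripts in the table. The transcript is 1160 bases long, its match to the Arabidopsis protein has a score of 196 and an e-value of 7e-61, and its assembly component, comp93382_c0, holds no other form. The gene was chosen by its measured levels in these libraries. Its own levels and differences are therefore given as a description, without a test.

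The fruit came from 'Toyonoka', an octaploid cultivar of the garden strawberry (Fragaria x ananassa), and the tissue is labelled receptacle, the fleshy part that carries the achenes, the true fruits with the seeds. At 2 weeks after flowering, 100 µL of distilled water, of 1 µM abscisic acid (ABA, a plant hormone that promotes ripening of this fruit) or of nordihydroguaiaretic acid at 100 µM (NDGA, used here to block ABA synthesis and also known as a lipoxygenase inhibitor) was injected into the receptacle core. The water group was sampled at days 0, 5 and 8 and either treatment at days 5 and 8. Each of the 7 resulting groups has 2 polyA mRNA libraries and 2 small RNA libraries, and the RNA of 10 fruits per group was pooled, so the p-values below measure the spread between 2 libraries of a group, which may be technical. The mRNA libraries hold 7356752 to 9035037 counted reads.

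MYB113 belongs to the R2R3-MYB transcription factors. In Arabidopsis it and its close relatives MYB75, MYB90 and MYB114 join a bHLH protein (TT8, GLABRA 3 or EGL3) and the WD40 protein TTG1 in a complex that switches on the late genes of anthocyanin synthesis. Anthocyanins, made from phenylalanine through the phenylpropanoid and flavonoid pathways, give the ripe strawberry receptacle its red colour, and related MYB factors are known as activators of fruit colour in other plants of the rose family.

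MYB113 was nearly absent at day 0 and became an abundant transcript by day 8. The unit is RPKM, the reads on a transcript divided by its length and by the counted reads of the library. In water-injected fruit it stood at 0 and 0.416 RPKM at day 0, which is 0 and 4 reads. At day 5 it stood at 9.57 and 7.85 RPKM, from 96 and 67 reads. At day 8 it stood at 135 and 120 RPKM, from 1333 and 1195 reads. The libraries of the 3 days did not overlap. For the library without a read, a count of 0 allows up to 0.286 RPKM (3 reads), a limit that covers counting error only.

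ABA-injected fruit held more MYB113 than water-injected fruit of the same day, and NDGA-injected fruit less. With ABA it stood at 55.7 and 52.1 RPKM at day 5, from 558 and 480 reads. At day 8 with ABA it stood at 227 and 216 RPKM, from 2185 and 2082 reads. Both libraries at each day lay above both water libraries of that day. With NDGA it stood at 0.295 and 0.787 RPKM at day 5, from 3 and 8 reads. At day 8 with NDGA it stood at 7.53 and 7.71 RPKM, from 69 and 77 reads, below both water libraries of that day. At its highest, in the ABA libraries of day 8, MYB113 ranked 638 and 655 from the top among the 99136 transcripts that reached 1 RPKM in at least 2 libraries. In the water libraries of day 8 it ranked 1136 and 1299.

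**Figure D1:**
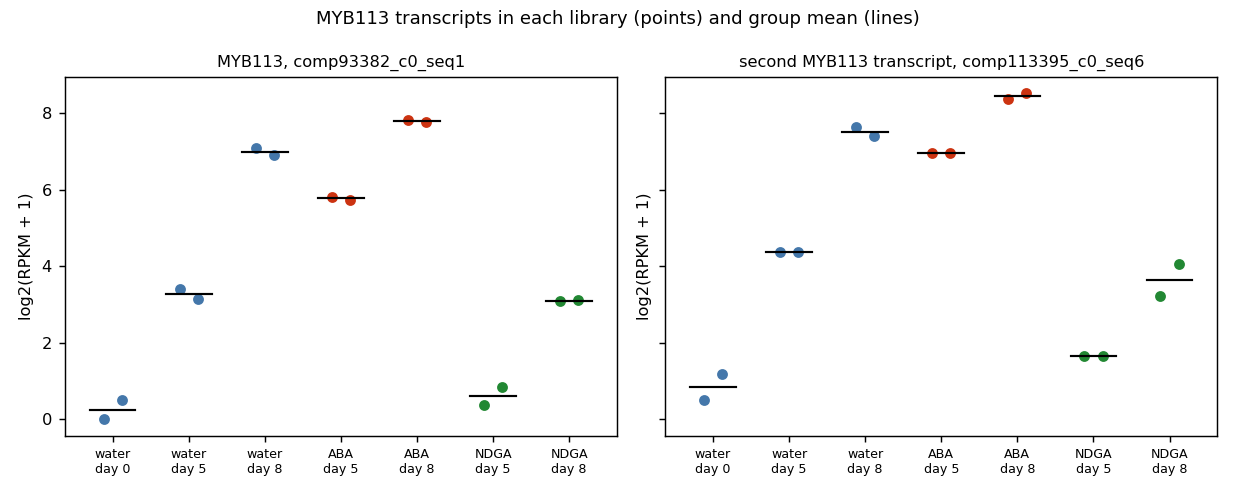
Level of the 2 transcripts described as MYB113 in each of the 14 mRNA libraries, as log2(RPKM + 1), with points for libraries and lines for group means. In both panels the ABA libraries of day 8 are the highest. The water libraries of day 0 are the lowest for the second transcript, while for MYB113 they overlap with the NDGA libraries of day 5.

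In rising order, the group means ± SD (n = 2 libraries each) were 0.208 ± 0.294 RPKM in water at day 0, 0.541 ± 0.348 with NDGA at day 5, 7.62 ± 0.126 with NDGA at day 8, 8.71 ± 1.22 in water at day 5, 53.9 ± 2.56 with ABA at day 5, 127 ± 10.9 in water at day 8 and 222 ± 7.67 with ABA at day 8. Among neighbours in this order, the libraries overlapped in 1 pair, water at day 0 and NDGA at day 5. NDGA at day 8 and water at day 5 lay close together, with a ratio of 0.869 whose counting interval of 0.690 to 1.09 includes equal levels. So NDGA-injected fruit at day 8 held about as much MYB113 as water-injected fruit had held at day 5, while ABA-injected fruit at day 5 held 0.424 times the level of water-injected fruit at day 8 (counting interval 0.394 to 0.456). In these bulk samples, fewer cells that express the gene and less RNA per cell cannot be told apart.

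The steps differed in size. Ratios here are of recovered reads per counted reads, with exact 95% intervals that cover counting error only, and differences are of mean log2(RPKM + 1), a scale that understates the change of low values. In water, MYB113 was 44.1 times higher at day 5 than at day 0 (16.9 to 164), a difference of 3.02, and 14.5 times higher at day 8 than at day 5 (12.4 to 17.1), a difference of 3.73. ABA-injected fruit held 6.15 times the water level at day 5 (5.21 to 7.30), a difference of 2.50, and 1.74 times the water level at day 8 (1.66 to 1.83), a difference of 0.80. Beside the median of all tested transcripts, which was -0.20 between ABA and water at day 8, that last difference was larger: it came to 1.11 with median-ratio scaling.

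With NDGA the shortfall was about as large at both days. MYB113 was 16.3 times lower than in water at day 5 (8.85 to 33.2) and 16.7 times lower at day 8 (14.1 to 19.9), differences of -2.67 and -3.89. From day 5 to day 8 it was 14.1 times higher in NDGA-injected fruit (7.66 to 28.9), beside 14.5 times in water and 4.11 times in ABA-injected fruit (3.84 to 4.40). Ranked by the difference against water at day 8, MYB113 was 10th from the bottom of 99136 transcripts with NDGA and 9267th from the top with ABA. Ranked by the difference between days 8 and 0 in water, 6.75, it was the 4th from the top. These ranks come from the values that chose the gene, and the ABA and NDGA comparisons of a day share their water libraries.

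A second transcript described as MYB113, comp113395_c0_seq6 (1312 bases), stood at a higher level in all 14 libraries. It stood at 0.422 and 1.29 RPKM in water at day 0, 19.8 and 19.9 at day 5, and 197 and 170 at day 8. With ABA it stood at 124 and 125 at day 5 and at 331 and 366 at day 8. With NDGA it stood at 2.17 and 2.17 at day 5 and at 8.40 and 15.7 at day 8. Whether these transcripts are alleles, copies from different subgenomes or separate genes was not tested, and reads they share could be placed with either.

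The second transcript was tested against the whole table, using limma on log2(RPKM + 1) and the 14 mRNA libraries together. It rose by 3.53 ± 0.25 (log2 change ± SE, adjusted p = 8.6e-07) from day 0 to day 5 and by 3.14 ± 0.25 (adjusted p = 5.8e-06) from day 5 to day 8 in water. It was higher with ABA at day 5 by 2.58 ± 0.25 (adjusted p = 5.3e-05) and at day 8 by 0.92 ± 0.25 (adjusted p = 0.027). The call at day 8 was lost without water day 8 replicate 1 or 2 (adjusted p = 0.0751 and 0.155), and likewise without either ABA library of day 8 (adjusted p = 0.0902 and 0.149). It was lower with NDGA, with changes of -2.72 ± 0.25 at day 5 (adjusted p = 3.2e-05) and -3.88 ± 0.25 at day 8 (adjusted p = 2.9e-06).

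The balance of the pair was not constant. The second transcript stood at 2.07 to 2.53 times MYB113 in the 4 water and ABA libraries of day 5 and at 1.42 to 1.69 times in those of day 8, so these libraries did not overlap between the days. With NDGA at day 8 the ratios were 1.11 and 2.03. No test was made of this ratio.

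Other transcripts of this activator group were low. The list of anthocyanin MYB activators holds 16 transcripts described as MYB113, MYB114, MYB75 or the maize anthocyanin regulator C1, of which 7 passed the filter on low values, MYB113 itself included. Another MYB113 transcript of 226 bases, comp135514_c0_seq1, was above 0 in 1 library, ABA day 5 replicate 2, at 1.11 RPKM. MYB114 (comp82033_c0_seq3) reached at most 1.44 RPKM and MYB75 (comp90800_c1_seq1) at most 0.967. The C1 protein comp96523_c0_seq1, the next most abundant, ranged from 7.06 ± 0.147 RPKM with ABA at day 5 to 18.9 ± 4.40 with NDGA at day 8 and passed the test in none of the 6 comparisons of the study.

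TTG1 and TT8, partners of such MYB factors, were already present at day 0. TTG1, the WD40 scaffold of the complex (comp112224_c0_seq3), had group means from 53.7 ± 0.576 to 63.1 ± 1.27 RPKM, and 0 of 6 tested TTG1 transcripts passed in any of the 6 comparisons. In these, 0.705% to 8.98% of all tested transcripts passed in a given direction, so 0 of 6 is near that share. TT8, the bHLH partner with the highest level (comp120161_c1_seq1), stood at 63.3 and 69.4 RPKM in water at day 0, 59.6 and 54.3 at day 5 and 73.6 and 82.1 at day 8. In ABA-injected fruit it stood at 63.9 and 71.7 at day 5 and at 175 and 177 at day 8, and in NDGA-injected fruit at 62.4 and 78.8 at day 5 and at 46.1 and 54.5 at day 8. The ABA libraries of day 8 stood far above the rest. TT8 was therefore at about its final water level at day 0, when MYB113 was near 0.

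TT8 rose with ABA at day 8 by 1.17 ± 0.13 (adjusted p = 6.2e-05). It was lower with NDGA at day 8, by a change of -0.62 ± 0.13 (adjusted p = 0.029), a call lost without water day 8 replicate 1 or 2 (adjusted p = 0.0855 and 0.204) or NDGA day 8 replicate 1 or 2 (adjusted p = 0.242 and 0.0602). GLABRA 3 (comp108901_c0_seq1), a bHLH partner in Arabidopsis leaf hairs and pigment cells, moved the other way with ABA at day 8, from 5.82 ± 1.03 to 1.67 ± 0.301 RPKM (log2 change -1.35 ± 0.27, adjusted p = 0.0041). Of 8 tested bHLH partners from 5 components, 3 rose (2 components) and 3 fell (3 components) with ABA at day 8, where 4.3% and 8.98% of all tested transcripts did. With NDGA at day 8, 0 rose and 1 fell, beside 0.705% and 1.48% of all. In each of the other 4 comparisons 0 of 8 passed, where 0.802% to 7.9% of all passed in a given direction.

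MYB repressors of the pathway were low and mixed. MYB4 (comp113434_c1_seq2), which represses phenylpropanoid genes in Arabidopsis, stood at 6.88 ± 1.09 RPKM in water and 16.1 ± 4.89 with ABA at day 8 (log2 change 1.10 ± 0.32, adjusted p = 0.039). That call was lost without 9 of the 14 libraries in turn, with an adjusted p of up to 0.267. A Myb-related protein (comp104920_c0_seq2), described from a snapdragon repressor of the phenylpropanoid pathway, was lower with ABA, at 1.11 ± 0.133 against 5.83 ± 0.171 RPKM at day 5 and at 2.93 ± 0.205 against 9.40 ± 0.868 at day 8 (log2 changes -1.70 ± 0.28 and -1.40 ± 0.28, adjusted p = 0.0053 and 0.0048). At day 5 the call was lost without water day 5 replicate 2 (adjusted p = 0.0569) or ABA day 5 replicate 1 (adjusted p = 0.0537). Of 14 tested repressors, 0 rose and 1 fell with ABA at day 5, beside 1.21% and 0.956% of all tested transcripts, and 1 rose and 3 fell at day 8, beside 4.3% and 8.98%. In water 0 rose and 2 fell from day 0 to day 5 (4.98% and 7.9% of all), and 2 rose and 0 fell from day 5 to day 8 (2.89% and 1.78%). With NDGA 0 rose and 0 fell at day 5 (1.23% and 0.802%), and 2 rose and 1 fell at day 8 (0.705% and 1.48%).

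The pathway was read from 3 lists of enzymes taken by description: phenylpropanoid entry (24 of 82 transcripts tested), early flavonoid (35 of 74) and late anthocyanin enzymes (51 of 140), 110 tested in all. A transcript was called at a limma adjusted p below 0.05, and each count is set beside the share of all 99136 tested transcripts called in that direction.

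From day 0 to day 5 in water, the first step of MYB113, the pathway split. Early flavonoid enzymes fell in 14 of 35 (12 components) and rose in 0, and entry enzymes fell in 9 of 24 (4 components) and rose in 0. Late anthocyanin enzymes rose in 14 of 51 (11 components) and fell in 6 (6 components). Over the 3 lists 14 rose and 29 fell of 110, beside 4.98% and 7.9% of all tested transcripts. The list medians were -0.80, -0.32 and 0.20, and that of all tested transcripts was -0.03. Chalcone synthase 2 (comp115927_c0_seq1), the first committed enzyme of flavonoid synthesis, stood at 68.8 and 67.2 RPKM at day 0 and at 5.87 and 8.03 at day 5 (log2 change -3.13 ± 0.14, adjusted p = 7.2e-09). Dihydroflavonol 4-reductase (comp105601_c0_seq9), which starts the late part, went from 250.5 and 310 to 738 and 811 RPKM (log2 change 1.47 ± 0.14, adjusted p = 1.5e-05).

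The share of transcripts of the achenes fell in the same step. The 152 transcripts described as seed storage proteins or oleosins made up 1.85 ± 0.134% of all RPKM at day 0 and 0.474 ± 0.00626% at day 5, with 53 of 72 tested members lower and 6 higher. At day 8 they made up 0.0276%, and in the ABA and NDGA groups 0.0167% to 0.0228%. None of the 3 most abundant ones, legumin A, legumin B and vicilin, had a group mean at 0. Their part in the pathway's changes was not tested. At day 5 the mean share was 0.474% in water, 0.0228% with ABA, where MYB113 was higher, and 0.0175% with NDGA, where MYB113 was lower. In both comparisons achene content differed along with the treatment, and the 2 cannot be told apart. From day 5 to day 8 in water 45 of 72 tested members were lower and 2 higher, beside 1.78% and 2.89% of all tested transcripts. Achene content thus differed along with the day in that step, and these cannot be told apart either. No list of markers of the receptacle itself was used.

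From day 5 to day 8 in water, the second step of MYB113, the 3 lists moved in 1 direction. Of 110 transcripts 25 rose and 0 fell, beside 2.89% and 1.78% of all tested transcripts. The risers were 5 entry (4 components), 12 early (8 components) and 8 late enzymes (8 components). Chalcone synthase 2 rose to 263 and 281 RPKM (log2 change 5.11 ± 0.14, adjusted p = 1.8e-10). Naringenin 3-dioxygenase, or flavanone 3-hydroxylase (comp105084_c0_seq1), an early enzyme that makes dihydroflavonols, went from 36.3 and 38.8 to 314 and 356 RPKM (log2 change 3.12 ± 0.10, adjusted p = 1.4e-09). Anthocyanidin 3-O-glucosyltransferase 1 (comp118873_c1_seq4), a form of 241 bases of the enzyme that makes the stable pigment, went from 1.44 and 1.13 to 77.5 and 68.4 RPKM (log2 change 5.02 ± 0.41, adjusted p = 7.3e-06). Its counts at day 5 were 3 and 2 reads. A form of 1667 bases of the same component (comp118873_c1_seq3) reached at most 1.25 RPKM in any library. Reads that the 2 forms have in common make the level of the short form uncertain.

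**Figure D2:**
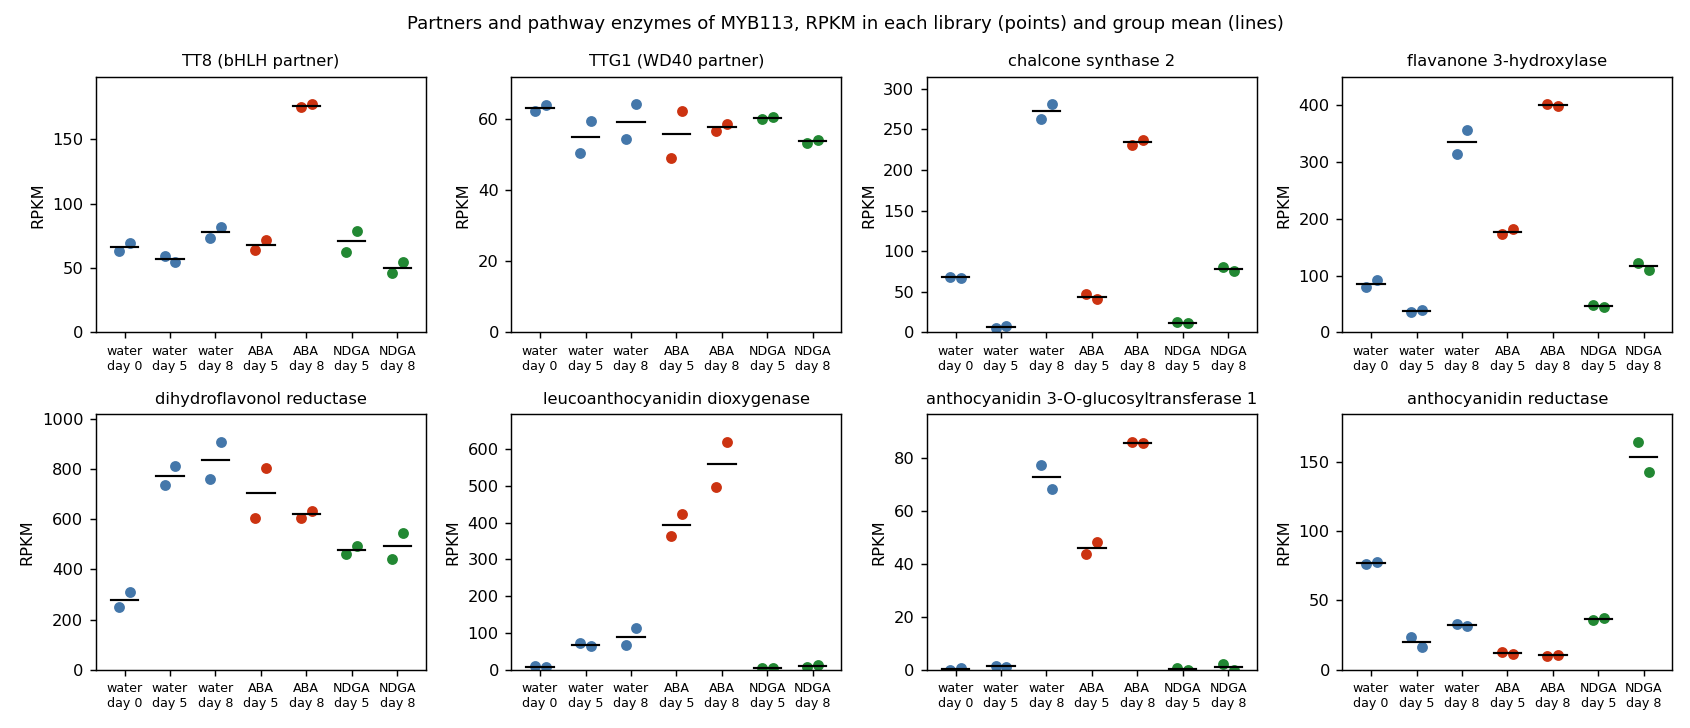
RPKM of 2 complex partners and 6 enzymes in each mRNA library, on linear axes that start at 0, with points for libraries and lines for group means. TTG1 is level, while the glucosyltransferase is near 0 in water at days 0 and 5 and in both NDGA groups and between 43.8 and 86.1 RPKM in the other groups.

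ABA at day 5, which held MYB113 at 53.9 RPKM, showed the same direction. Of 110 pathway transcripts 16 rose and 0 fell, beside 1.21% and 0.956% of all tested transcripts. The risers were 2 entry (1 component), 8 early (7 components) and 6 late enzymes (6 components). The glucosyltransferase comp118873_c1_seq4 stood at 43.8 and 48.1 RPKM (log2 change against water 4.36 ± 0.41, adjusted p = 4.0e-05), although with a pseudocount of 0.1 the adjusted p was 0.066. Leucoanthocyanidin dioxygenase (comp103558_c0_seq2, a form of 342 bases), which makes the coloured anthocyanidins, went from 71.4 and 65.2 RPKM in water to 364 and 424 (log2 change 2.51 ± 0.26, adjusted p = 9.1e-05). That form shares its component with a form described as flavonol synthase, so reads the 2 have in common make its level uncertain. Flavanone 3-hydroxylase stood at 172 and 182 RPKM (2.21 ± 0.10, adjusted p = 5.5e-08) and chalcone synthase 2 at 47.0 and 41.1 (2.51 ± 0.14, adjusted p = 1.7e-07). Dihydroflavonol reductase, at 604 and 806 RPKM, overlapped with the water libraries.

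At day 8 the ABA fruit held the highest MYB113 level, and pathway transcripts went both ways. Of 110 transcripts 11 rose and 12 fell, beside 4.3% and 8.98% of all tested transcripts. Entry enzymes rose in 0 and fell in 5 (5 components), and early enzymes rose in 4 (3 components) and fell in 4 (4 components). Late enzymes rose in 7 (7 components) and fell in 3 (3 components). The balance of the split depended on the processing and on single libraries. It was 14 higher and 6 lower with median-ratio scaling and 13 and 8 with quantile normalization. More fell than rose in other fits: 8 higher and 13 lower with a pseudocount of 0.1, and 9 and 17 at RPKM of 5 or more. It was 11 and 15 with a replicate block and 13 and 20 with limma's voom on recovered reads. Without a filter on low values it was even, at 7 and 7. Leaving out any library of either group shifted the balance to more rises than falls.

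Single enzymes at day 8 went both ways with ABA. Leucoanthocyanidin dioxygenase stood at 497 and 620 RPKM against 66.0 and 114 in water (log2 change 2.66 ± 0.26, adjusted p = 1.3e-05). The glucosyltransferase, at 86.1 and 85.6 against 77.5 and 68.4 RPKM, and flavanone 3-hydroxylase, at 401 and 399.6 against 314 and 356, did not pass the test. Chalcone isomerase 2 (comp105294_c1_seq2), which closes the flavanone ring, was lower at 32.4 ± 0.346 against 73.8 ± 11.5 RPKM (log2 change -1.15 ± 0.17, adjusted p = 0.00046). Phenylalanine ammonia-lyase 1 (comp109367_c0_seq10, a form of 345 bases), the entry enzyme, stood at 6.30 and 5.59 against 40.2 and 49.5 RPKM (log2 change -2.72 ± 0.35, adjusted p = 0.00018). In the other 5 groups that form had means from 4.15 to 7.27 RPKM, so it was high in water at day 8 alone and did not follow MYB113.

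At day 5 NDGA-injected fruit held almost no MYB113, and pathway transcripts passed the test in both directions. Of 110 transcripts 8 rose and 3 fell, beside 1.23% and 0.802% of all tested transcripts. Entry enzymes rose in 2 (1 component) and fell in 0, and early enzymes rose in 3 (3 components) and fell in 0. Late enzymes rose in 3 (2 components) and fell in 3 (3 components). Leucoanthocyanidin dioxygenase fell to 5.33 and 6.00 RPKM from 71.4 and 65.2 (log2 change -3.38 ± 0.26, adjusted p = 5.0e-06). Chalcone isomerase 1 (comp105294_c0_seq1) was higher at 29.9 and 27.5 against 15.4 and 13.7 RPKM (log2 change 0.93 ± 0.11, adjusted p = 0.00037). The excess of rises was lost without water day 5 replicate 1, where 3 rose and 3 fell. It was 4 and 2 without water day 5 replicate 2, 3 and 1 without NDGA day 5 replicate 1, and 3 and 2 without NDGA day 5 replicate 2.

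At day 8 with NDGA, 20 of 110 pathway transcripts fell and 3 rose, beside 1.48% and 0.705% of all tested transcripts. Entry enzymes fell in 4 (4 components) and rose in 0, and early enzymes fell in 9 (7 components) and rose in 3 (2 components). Late enzymes fell in 7 (7 components) and rose in 0. The glucosyltransferase stood at 2.10 and 0 RPKM against 77.5 and 68.4 in water, from 4 and 0 reads (log2 change -5.39 ± 0.41, adjusted p = 1.3e-05). Leucoanthocyanidin dioxygenase stood at 8.15 and 13.2 RPKM (-2.95 ± 0.26, adjusted p = 3.7e-05). Flavanone 3-hydroxylase stood at 123 and 110.3 RPKM (-1.51 ± 0.10, adjusted p = 5.8e-06) and chalcone synthase 2 at 80.5 and 76.0 (-1.79 ± 0.14, adjusted p = 1.3e-05). Chalcone isomerase 1, at 135 and 117 against 152 and 152 RPKM, did not pass. The 23 calls became 12 without water day 8 replicate 2, and 13 and 15 without NDGA day 8 replicate 1 and 2.

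**Figure D3:**
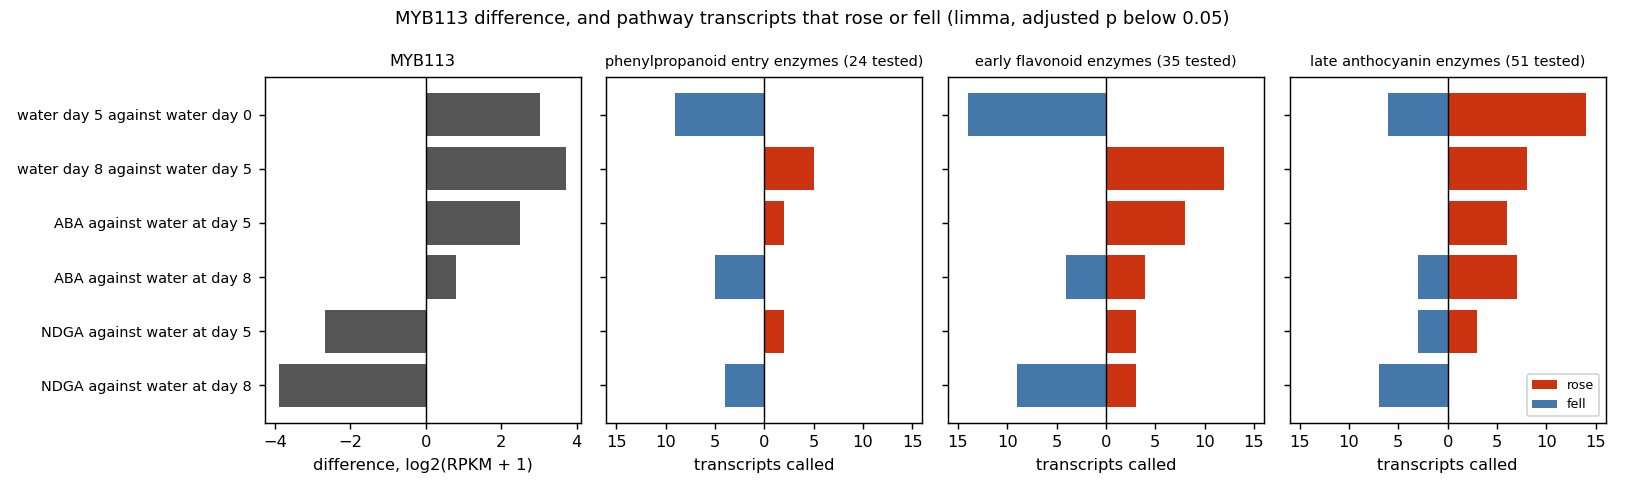
Left, the difference in mean log2(RPKM + 1) of MYB113 in the 6 comparisons, without a test; right, the number of tested transcripts in 3 enzyme lists that rose or fell (limma, adjusted p below 0.05). The counts and MYB113 point the same way from day 5 to day 8 in water and with ABA at day 5. With NDGA at day 8, where MYB113 was lower, 20 transcripts of the 3 lists fell and 3 rose. The early enzymes fell from day 0 to day 5 in water as MYB113 became higher.

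The treatments' effects on the enzymes differed between the days. By the interaction term of the same limma fit, 13 of 110 pathway transcripts (12 components) had a lower ABA effect at day 8 than at day 5. A higher one was found for 0, beside 2.54% (lower) and 1.15% (higher) of all tested transcripts. For NDGA 20 (16 components) had a lower and 0 a higher effect, beside 1.79% and 0.857%. Both terms rest on the same water libraries, so they are not independent. Of 72 tested achene markers, 39 had a higher and 2 a lower ABA effect at day 8, and 38 and 1 an NDGA effect. Both terms include water at day 5, with its achene share of 0.474%. Achene content and treatment therefore cannot be told apart in them.

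An enzyme of the branch to proanthocyanidins, colourless tannins made from the same intermediates, was higher in NDGA fruit at day 8. Anthocyanidin reductase (comp103703_c0_seq1), which diverts anthocyanidins to epicatechin, stood at 164 and 143 RPKM with NDGA at day 8 against 33.1 and 31.8 in water (log2 change 2.20 ± 0.16, adjusted p = 1.1e-05). With ABA at day 8 it stood at 10.1 and 10.5 RPKM (-1.57 ± 0.16, adjusted p = 2.7e-05). Its level was highest in the NDGA libraries of day 8, next highest at day 0 (76.5 and 77.8) and lowest with ABA at day 8, where MYB113 was highest. Leucoanthocyanidin reductase (comp100688_c0_seq1), which makes catechin, ranged only from 10.7 ± 1.66 RPKM at day 0 to 34.1 ± 0.882 with ABA at day 5. Of 26 tested transcripts of the flavonol and proanthocyanidin branches, 2 rose and 3 fell with NDGA at day 8, beside 0.705% and 1.48% of all tested transcripts, so the reductase does not stand for the list.

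Among transporters, 16 of 45 tested transcripts (13 components) rose and 0 fell from day 5 to day 8 in water, beside 2.89% and 1.78% of all tested transcripts. The 45 are mostly described as TRANSPARENT TESTA 12 (TT12, 40 transcripts), with 4 described as glutathione S-transferase F11 and 1 as F12. With NDGA at day 8, 0 rose and 15 fell (11 components), beside 0.705% and 1.48%. With ABA at day 8, 2 rose (2 components) and 14 fell (12 components), beside 4.3% and 8.98%. The glutathione S-transferase F11 (comp96711_c0_seq3), of a class whose member F12 carries anthocyanins to the vacuole in Arabidopsis, had 37.7 and 28.4 RPKM in water at day 8 and at most 2.18 in any other library. That is lower with ABA than in water (log2 change -3.99 ± 0.41, adjusted p = 2.1e-05), although MYB113 was higher there. The F12 form of the same component (comp96711_c0_seq2, 373 bases) was low, at 5.04 and 4.98 RPKM in water at day 8. With ABA at day 8 it stood at 5.50 and 2.59, overlapping with water, and with NDGA at day 8 at 0 and 0.312. Reads that F11 and F12 have in common make both levels uncertain.

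The likeness of other transcripts to MYB113 was measured as Pearson's r of mean log2(RPKM + 1) over the 7 groups, which share their libraries across transcripts. It is a description without a p. Among 9555 described transcripts with a highest group mean of at least 10 RPKM, the highest r was that of the aquaporin NIP1-1 (comp96820_c1_seq4, r = 0.996), a channel for water and small solutes, which went from 4.25 ± 0.262 RPKM at day 0 to 30.9 ± 0.567 in water and 34.0 ± 4.40 with ABA at day 8. The second MYB113 transcript came next (r = 0.995). The other 8 of the 10 most like were the external mitochondrial NAD(P)H dehydrogenase B2, the Mut11 protein, a caffeic acid 3-O-methyltransferase, 2 transcripts of separate components described as acyl carrier protein 1, beta-galactosidase 16, the transcription factor bHLH149 and extensin-3, with r from 0.980 to 0.992. Their ranges differed widely: the methyltransferase (comp98837_c1_seq1) went from 182 ± 9.43 RPKM at day 0 to 529 ± 99.0 with ABA at day 8, and beta-galactosidase 16 (comp98341_c2_seq5), a wall enzyme, from 0.592 ± 0.311 to 32.9 ± 2.31.

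The 5 least like fell as MYB113 became higher. They were the transcription factor bHLH96, an endo-1,3;1,4-beta-D-glucanase, the receptor kinase TDR, cyclin-D3-1 and beta-xylosidase/alpha-L-arabinofuranosidase 2, with r from -0.988 to -0.969. Cyclin-D3-1 (comp110005_c1_seq1), which promotes cell division, went from 118 ± 2.13 RPKM at day 0 to 14.6 ± 0.0126 in water and 6.14 ± 2.15 with ABA at day 8, and stood at 66.3 ± 7.48 with NDGA at day 5.

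**Figure D4:**
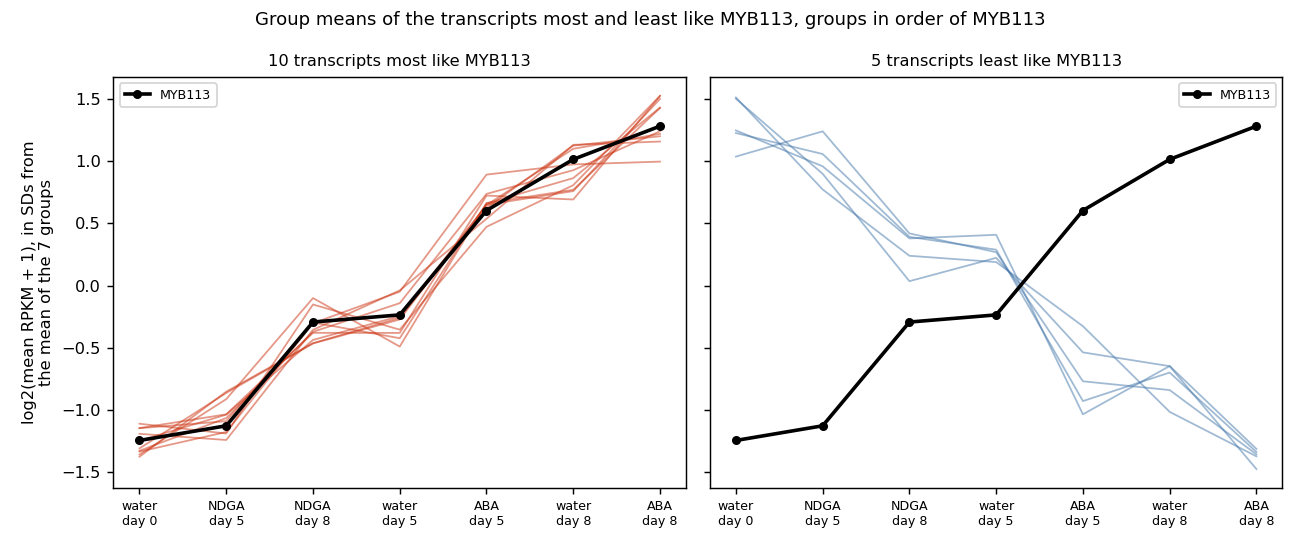
Group means of the 10 described transcripts most like MYB113 and the 5 least like it, as log2(mean RPKM + 1) in SDs from the transcript's mean over the 7 groups, with the groups ordered by MYB113 (black). Since each line is scaled to its own SD, the panels show the order and spacing of the groups and not the size of the change.

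Likeness differed between the enzyme lists. The median r was 0.165 for late anthocyanin, 0.02 for early flavonoid and -0.38 for entry enzymes, beside -0.108 for all tested transcripts. An r over 0.9 was reached by 5 of 51 late enzymes (9.8%), 1 of 35 early enzymes (2.86%) and 0 of 24 entry enzymes, beside 716 of all 99136 (0.722%). Of the achene markers, with a median r of -0.566, 2 of 72 (2.78%) reached it, about the share of the early enzymes. Of the abundant members, the glucosyltransferase comp118873_c1_seq4 had r = 0.951, the leucoanthocyanidin dioxygenase comp103558_c0_seq2 0.89, flavanone 3-hydroxylase 0.84, dihydroflavonol reductase 0.74, chalcone synthase 2 0.63 and anthocyanidin reductase -0.61. The same rising order of all 7 group means as MYB113 was found in 71 of 99136 tested transcripts, MYB113 included. Of 17007 transcripts with a highest group mean of at least 10 RPKM, 35 had it, 22 of them with a description. These include 2 transcripts of separate components described as UDP-glucose flavonoid 3-O-glucosyltransferase 6 (comp113078_c2_seq1 and comp113078_c0_seq3), which were at 0 in both water libraries of day 0. Others are the quinone oxidoreductase At1g23740-like protein (comp99435_c1_seq1), with group means from 14.4 to 454 RPKM, and the transcription factor MYB86 (comp106032_c0_seq1), from 6.98 to 16.7 RPKM.

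MicroRNAs known in other plants to act on MYB factors or on proteins that bind them were set beside MYB113. Values are RPM, reads scaled to the library size of the small RNA library, and were not tested. Of miR828, which targets MYB factors of this kind in Arabidopsis, the table used here lists the 3p arm (miR828-3p), which was above 0 in 1 of 14 libraries, at 0.631 RPM in ABA day 5 replicate 1. miR858, which targets other R2R3-MYB factors, is listed under 3 names of which exactly 1 is above 0 in each library. Its sum stood at 39.9 and 30.5 RPM in water at day 0, 31.2 and 79.7 at day 5 and 14.4 and 22.8 at day 8. With ABA it stood at 41.5 and 25.5 at day 5 and 27.9 and 24.7 at day 8, and with NDGA at 38.4 and 80.0 at day 5 and 36.7 and 84.0 at day 8. At day 8 the 2 water libraries were the lowest and the 2 NDGA libraries the highest, while at day 5 the treatments overlapped.

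miR156, which in Arabidopsis lowers SPL factors that interfere with the MYB complex, was led by miR156k. It stood at 1377 and 1015 RPM in water at day 0, 3764 and 1700.3 at day 5 and 2631 and 4884 at day 8. With ABA it stood at 8429 and 5130 RPM at day 5 and 7528 and 7659 at day 8, above both water libraries of each day. With NDGA it stood at 1654 and 3271 RPM at day 5, overlapping with water, and at 1499 and 938 at day 8, below water. Water day 5 replicate 2 and NDGA day 8 replicate 2 were scaled by the authors to another total than their clean reads, so their RPM values are less comparable.

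In the authors' deposited tables MYB113 is not in the list of differential transcripts, nor among their 110 differential transcription factors. It is also not among the 792 predicted targets of their differential known miRNAs or the 6490 of the miRNAs they list outside the known set. The authors' deposited table of targets gives, for miR858b, 1 member of the activator list, the C1 protein comp61660_c0_seq1, whose group means were 3.12 ± 0.591 RPKM at day 0 and at most 1.94 ± 0.119 in the other groups.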

How the data were processed

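RPKM values per assembled transcript were made by the authors, per the file headers, on a Trinity assembly named in the labels; neither aligner nor counter is named there. Multiplied by length, the values were whole reads (within 0.1) for 100% of values, and these reads gave the ratios and their exact intervals. Known-miRNA values are RPM on the deposited clean reads counts; values times clean reads were whole in all but 2 of 14 libraries. Groups and replicates come from the labels. The 8 unnamed lines were not used here.

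The 99136 transcripts reaching 1 RPKM in at least 2 libraries entered limma 3.58.1 (R 4.3.3) on log2(RPKM + 1), over 7 groups, with a trended prior (6.05 prior and 7 residual df) and Benjamini-Hochberg adjustment within each comparison. The script was tested on simulated data. SDs are over 2 libraries; SEs are those of the fit. MYB113 and the 12 lists, taken by keyword from Swiss-Prot descriptions, were chosen with earlier results of these data known. Named transcripts were the most abundant tested one of each description in a list, of which the text gives a few, and the 10 most and 5 least like MYB113; the aroma, MYB86 and flavonoid glucosyltransferase 6 transcripts of the same order were chosen after their values were seen. The comparisons of a day share water libraries, as do those of successive days. Alternatives were a pseudocount of 0.1, no filter or RPKM of 5 or more, quantile normalization, a replicate block, only the compared groups, each library left out and, for MYB113, the sum over its component. Light signalling regulators were a list as well: of 11 tested, 1 fell from day 0 to day 5 in water, where 7.9% of all tested transcripts fell, and 0 passed in the other 5 comparisons. In those 5, 0.705% to 8.98% of all tested transcripts passed in a given direction. A list of other flavonoid MYB factors had 0 of 5 transcripts tested.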

Additional observations from a re-analysis of the deposited data

Results flagged for a closer look

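The effect of a treatment at day 8 differed from its effect at day 5, by the interaction term of the limma fit (adjusted p below 0.05), for 16 of the named transcripts with a group mean of at least 10 RPKM. Of all tested transcripts, 2.54% had a lower and 1.15% a higher ABA effect at day 8 than at day 5. For NDGA the shares were 1.79% and 0.857%. Values are log2 changes at day 8 minus those at day 5. The ABA and NDGA terms share the water libraries of both days, so they are not independent. Both include water at day 5, whose achene share was above that of either treatment. Achene content and treatment therefore cannot be told apart in these terms.

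Among regulators, the second MYB113 transcript differed by -1.66 for ABA (adjusted p = 0.019). TT8 (comp120161_c1_seq1) differed by 0.92 for ABA (adjusted p = 0.016) and by -0.92 for NDGA (adjusted p = 0.019). A Myb-related protein (comp109168_c1_seq2) of the repressor list differed by -1.54 for ABA and -1.53 for NDGA. Its level was 18.1 ± 0.757 RPKM in water at day 8 and at most 7.82 ± 0.631 in the other groups.

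Among the entry and early enzymes, phenylalanine ammonia-lyase 1 differed by -2.61 for ABA and -3.58 for NDGA, and cinnamate 4-hydroxylase (comp106234_c0_seq1) by -1.43 for NDGA. Chalcone synthase (comp115927_c0_seq2) differed by -2.32 for ABA and -2.69 for NDGA and chalcone synthase 2 by -2.73 and -2.50. The former had 0 reads in both water libraries of day 5, so a fall with NDGA there could not show and its NDGA term rests mainly on day 8. Chalcone isomerase (comp105486_c1_seq2) differed by -3.21 and -3.19, chalcone isomerase 1 by -1.77 and -1.20, and chalcone isomerase 2 by -2.59 and -2.14. Flavanone 3-hydroxylase differed by -1.95 for ABA and -1.81 for NDGA.

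Among late enzymes, branches and transport, the glucosyltransferase comp118873_c1_seq4 differed by -4.13 for ABA and -4.48 for NDGA. Its ABA effect was 4.36 at day 5 and did not pass at day 8. Its NDGA effect was -5.39 at day 8, while at day 5 water held only 3 and 2 reads, so a fall there could hardly show and the NDGA term rests mainly on day 8. Anthocyanidin reductase differed by -0.94 for ABA and 1.33 for NDGA, and a flavonol synthase form of 299 bases (comp103558_c0_seq1) by -2.01 for ABA. The glutathione S-transferase F11 differed by -5.02 for ABA and -3.78 for NDGA. It had 0 reads in the water and NDGA libraries of day 5, so the NDGA term restates its difference at day 8. A transporter described as TT12 (comp104924_c0_seq4) differed by -0.95 for NDGA.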

How the results depend on the processing

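The differences of MYB113 kept their direction in every alternative run. With a pseudocount of 0.1 they were 5.27 from day 0 to day 5 in water and -3.89 and -4.04 with NDGA at days 5 and 8, and with median-ratio scaling the ABA difference at day 8 was 1.11; the others moved by less than 1 SD. The sum over the component equals the single form. Leaving out each library of the compared groups gave 2.77 to 3.27 and 3.60 to 3.86 for the steps in water, 2.38 to 2.63 and 0.71 to 0.88 for ABA at days 5 and 8, and -2.90 to -2.44 and -3.98 to -3.81 for NDGA. The counts of pathway transcripts, in the order of the 2 steps in water, ABA at days 5 and 8 and NDGA at days 5 and 8, were 43, 25, 16, 23, 11 and 23. With the fit limited to the compared groups they were 8, 4, 0, 4, 0 and 0, and of 86 calls of named transcripts 76 were lost; the fit then has 2 residual degrees of freedom. Without a filter on low values ABA at day 8 gave 14, NDGA at day 5 gave 6 and NDGA at day 8 gave 15, and with a pseudocount of 0.1 NDGA at day 8 gave 15. Leaving out each of 14 libraries gave 29 to 44, 21 to 26, 11 to 16, 12 to 24, 4 to 11 and 12 to 21, with a lone library assumed to vary like the other groups; 57 of the 86 calls passed in all 14 such fits, and none of the 86 reversed in any alternative. Limma's voom on recovered reads (41, 29, 20, 33, 11 and 28) and median-ratio scaling were chosen after seeing the data. Across transcripts, the difference between replicates 1 and 2 in a group correlated at 0.0568 to 0.0767 with that in the group it was compared with. Pairing by number was therefore weak, and the main fit left it out. The replicate block gave 44, 26, 17, 26, 12 and 23 pathway calls. It raised the calls over all tested transcripts in each comparison, for ABA at day 5 from 2146 to 2795. Depth limits MYB113 itself at day 0 and with NDGA at day 5, where a library holds 0 to 8 reads.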
